A study of Mus musculus with 2 samples.

Results

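The levels of 10 genes of the p53 and senescence response were compared in mouse alveolar organoids, by cell type and with or without IL-1β. The genes were Cdkn1a, Cdkn2a, Cdkn2b, Mdm2, Ccng1, Gdf15, Trp53, Bax, Phlda3 and Trp53inp1. They were chosen by name with earlier results of these data known, as were the gene lists used below. Counts of these genes set beside the share of all genes are thus a description. Each of the 10 matched exactly 1 of the 27998 gene rows in both libraries, and all 10 passed the filter on low counts in every comparison. The organoids came from SPC lineage-labeled alveolar type 2 (AT2) cells of C57BL/6 mice (SPC-CreERT2;R26R-tdTomato), in which tamoxifen and a Cre driven by the surfactant protein C promoter mark AT2 cells, grown together with cultured lung stromal cells; the sources differ on the time in culture. One library came from control organoids treated with PBS and 1 from organoids treated with IL-1β, an inflammatory cytokine. With 1 library per condition, the effect of the cytokine and the difference between 2 cultures cannot be told apart, and no test was made. Intervals in brackets are exact 95% intervals that cover counting error only.

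The protein p53, encoded by Trp53, is a transcription factor that is stabilized by DNA damage and other stresses. It switches on genes that stop the cell cycle (Cdkn1a, Ccng1), that promote cell death (Bax, Phlda3, Trp53inp1) and that limit p53 itself (Mdm2). Cdkn2a and Cdkn2b encode inhibitors of the cyclin D-dependent kinases and mark senescent cells in many tissues. Cells on the way from AT2 to alveolar type 1 (AT1) cells, the flat cells of gas exchange, can pass through a keratin-rich transitional state.

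Droplet 3′ sequencing with unique molecular identifiers (UMIs) gave 2101 control and 3066 IL-1β barcodes, with 33965848 and 41220175 UMIs and medians of 14613 and 11496.5 UMIs per barcode. 11 barcode sequences occurred in both libraries. After the study's cutoffs, 2083 and 3059 barcodes were clustered without the 10 genes or any other gene listed here, and clusters were named from fixed markers. This gave 902 control and 1864 IL-1β AT2-like cells, 113 and 272 transitional cells, 228 and 359 AT1-like cells, and 768 and 452 stromal cells. A further 39 control cells were cycling, and 33 control and 112 IL-1β cells stayed unnamed. These names were rebuilt here and can differ from the study's. The study left the stromal cells out of its epithelial clustering, and they are kept here as a comparison. Most cells of a class came from different clusters in the 2 libraries: E0 held most control and E1 to E3 most IL-1β AT2-like cells, E7 and E5 the transitional cells, E6 and E4 the AT1-like cells, and S1, S2 and S6 most IL-1β stromal cells. Free RNA was visible in both libraries: the levels of 9 stromal markers in AT2-like cells had a median of 2.45% of the stromal level in the control library and 2.35% in the IL-1β library. The pan-leukocyte gene Ptprc had 0 to 8 UMIs per class.

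Levels are given as CPM, the UMIs of a gene per 1000000 UMIs of its class and library. Marker levels followed 3 of the 4 class names in both libraries. The clusters were named from these same markers, so their levels describe the classes and are no separate check of the names. Ager, an AT1 gene, stood at 13277 and 7383 CPM in control and IL-1β AT1-like cells against 937 and 552 in AT2-like cells. Col1a1, a collagen gene of fibroblasts, stood at 1437 and 1424 CPM in stromal against 27.0 and 23.6 in AT2-like cells. Krt8, the keratin of transitional cells, stood at 1054 CPM in IL-1β transitional cells against 423 in IL-1β AT2-like cells. In the control library the transitional class was less clear, with Krt8 at 480 against 269 and the AT2 gene Sftpc still at 89610 against 99178 CPM. Control AT1-like cells held more Krt8 (539), and the 10 transitional markers summed to 3493 CPM there against 2963 in control transitional cells. Other transitional markers were higher in the transitional class: Cldn4 (68.7 against 39.7), Sprr1a (246 against 13.7) and Lgals3 (977 against 488). In the IL-1β library Cldn4 stood at 281 in transitional and 301 in AT1-like cells. The control transitional class held a small group rich in Cldn4. The larger remainder, close to AT2 in Sftpc and Krt8, is separated from it further on.

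The genes lie on 7 chromosomes of GRCm38. Cdkn2a (4:89274471-89294653) and Cdkn2b (4:89306299-89311039) are neighbors on the minus strand of chromosome 4, and Trp53inp1 lies on the plus strand of that chromosome (4:11156431-11174379). Cdkn2a has 2 first exons with separate promoters, for p16INK4a and p19ARF, and its counts were per gene, so the 2 products could not be told apart. Cdkn1a (17:29090976-29100727, plus strand) is overlapped by 1 gene on the opposite strand, and Bax (7:45461697-45466898, minus strand) by the predicted gene Gm45808 on its own strand. Reads of those partners could not be separated from theirs by position alone. The other positions are 10:117688875-117710758 for Mdm2, 11:40748552-40755311 for Ccng1 and 8:70629393-70632456 for Gdf15, all minus strand, and 11:69580359-69591873 for Trp53 and 1:135766119-135769136 for Phlda3, both plus strand.

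The promoter windows of the 10 genes were searched for the p53 decamer, the 10-base unit of the p53 response element. Its consensus reads the same on both strands. RefSeq windows from 250 bases before to 50 bases after a start (GRCm38.p6) matched 9 of the 10 genes, with 12 windows. The decamer was found in 5 of the 12 member windows (41.7%) and in 2745 of 32851 windows of all genes (8.36%). The Cdkn1a window held 2, separated by 12 bases, which 0.359% of all windows did (2 or more). The stretches around the matches are shown 5′ to 3′ on the gene's strand with the decamer in capitals, since they show where these promoters carry the letters of that unit.
Cdkn1a, 17:29090881-29090962, plus strand: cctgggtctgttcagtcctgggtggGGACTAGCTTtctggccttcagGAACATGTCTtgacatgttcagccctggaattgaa
Ccng1, 11:40755437-40755496, minus strand: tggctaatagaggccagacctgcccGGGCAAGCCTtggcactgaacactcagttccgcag
Mdm2, 10:117710910-117710969, minus strand: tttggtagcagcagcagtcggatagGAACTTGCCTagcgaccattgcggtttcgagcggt
Bax, 7:45467065-45467124, minus strand: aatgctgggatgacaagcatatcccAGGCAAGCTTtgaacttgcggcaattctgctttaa
Trp53, 11:69580259-69580318, plus strand: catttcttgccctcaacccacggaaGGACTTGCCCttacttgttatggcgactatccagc
A match is a run of letters, not a measured binding site, and no match in the windows of Cdkn2a, Cdkn2b, Gdf15 or Phlda3 says only that these letters are not in those windows. The genes were chosen by name and include known p53 targets, so a higher share than over all genes can follow from that choice. The activity of p53 in these cells was not tested.

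Cdkn1a, which encodes the p53-induced inhibitor p21, was lowest in AT2-like cells in both libraries. In the control library it stood at 105 (99.5 to 111) CPM in AT2-like, 424 (392 to 457) in transitional, 468 (445 to 492) in AT1-like and 701 (686 to 715) in stromal cells. In the IL-1β library the levels were 164 (159 to 169), 454 (429 to 479), 406 (388 to 424) and 408 (395 to 421). Control stromal cells were thus the highest class, and control transitional and AT1-like cells were close neighbors (AT1-like over transitional 1.10, 1.01 to 1.21). In the IL-1β library the intervals of AT1-like and stromal cells overlapped.

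Cdkn2b, which encodes p15INK4b, was the most AT1-biased of the 10 genes. Its control levels were 17.9 CPM in AT2-like, 62.5 in transitional, 358 in AT1-like and 99.3 in stromal cells. Its IL-1β levels were 33.0, 102, 270.0 and 51.6. The AT1-like cells were the highest class in both libraries, with 20.02 (17.4 to 23.1) times the control AT2-like level and 8.19 (7.47 to 8.97) times that of IL-1β AT2-like cells. After each cell was thinned to 4000 UMIs, 156 of 228 control AT1-like cells (68.4%, 62.0 to 74.4) held a Cdkn2b UMI, against 62 of 902 AT2-like cells (6.87%, 5.31 to 8.73). Without thinning, the shares were 92.1% and 21.6%, at median depths of 11748 and 14335.5 UMIs.

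Cdkn2a, by contrast, was a stromal gene. It stood at 569 (556 to 582) CPM in control and 435 (422 to 449) in IL-1β stromal cells. AT2-like cells held 15.1 in each library, which is 2.66% and 3.48% of the stromal level and within the range of the 9 stromal markers there (1.38 to 7.57% and 1.65 to 5.47%). This level is read as background. The transitional cells, at 19.99 and 22.5 CPM, were also within the marker range of their class. AT1-like cells held 79.4 (70.0 to 89.6) and 44.0 (38.3 to 50.4), or 14.0% and 10.1% of the stromal level, against a marker median of 2.46% and 2.21%; single markers there reached 95.3% and 51.0%. After thinning, 49 of 228 control AT1-like cells (21.5%) and 545 of 768 stromal cells (71.0%) held a Cdkn2a UMI, against 63 of 902 AT2-like cells (6.98%). Without thinning these shares were 45.2%, 88.4% and 20.1%.

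Set against AT2-like cells of their own library, control stromal cells had 9 of the 10 genes at least 2 times as high with an interval above 1 and none lower by the same rule, where 27.9% of all genes were higher and 13.9% lower. Besides Cdkn2a (37.6 times, over an AT2-like level read as background) the ratios were largest for Phlda3 (10.01) and Cdkn1a (6.68). IL-1β stromal cells had 4 higher, Cdkn2a (28.8), Phlda3 (3.80), Cdkn1a (2.49) and Mdm2 (2.03), and Gdf15 lower (0.377), where 17.4% of all genes were higher and 21.2% lower.

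**Figure D1:**
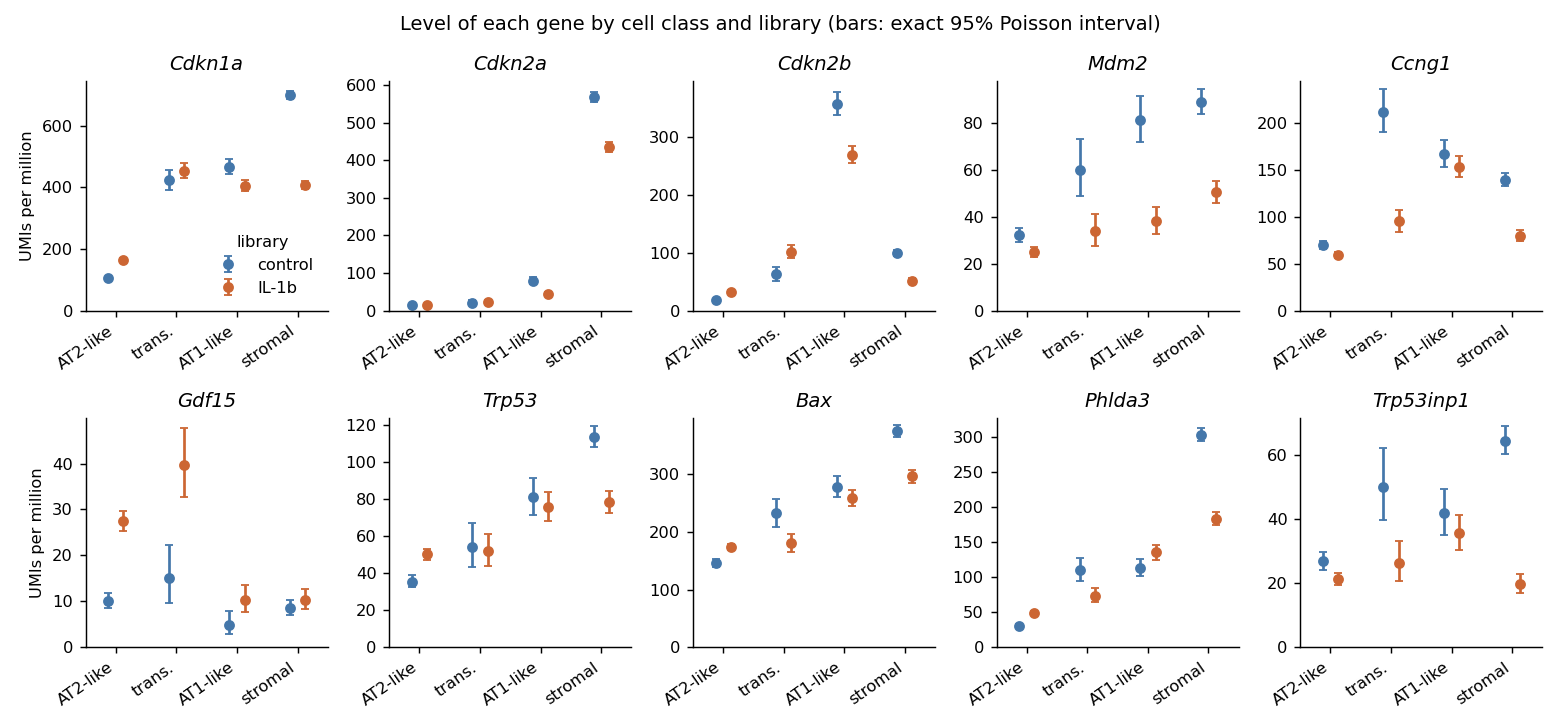
Level of each of the 10 genes in CPM (y axis, from 0, 1 scale per gene) in AT2-like, transitional (trans.), AT1-like and stromal cells (x axis) of the control (blue) and IL-1b (orange) libraries; bars are exact 95% Poisson intervals. Cdkn2b is highest in AT1-like cells, Cdkn2a in stromal cells, and Gdf15 in IL-1b transitional and AT2-like cells at 39.7 and 27.5 CPM.

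Among the p53 targets, Phlda3, an inhibitor of AKT signaling, had the same order as Cdkn1a in the control library. It stood at 30.4, 110.0, 114 and 304 CPM in AT2-like, transitional, AT1-like and stromal cells there, and at 48.4, 73.8, 135 and 184 in the IL-1β library. Ccng1, which encodes cyclin G1, was highest in transitional cells of the control library, at 212 (190 to 236) CPM against 69.6 in AT2-like, 167 in AT1-like and 140 in stromal cells. In the IL-1β library the AT1-like cells led instead, at 153 (142 to 164) against 95.2 in transitional, 59.5 in AT2-like and 79.3 in stromal cells. Bax, the pore-forming effector of apoptosis, covered a narrow range, from 146 in control AT2-like to 375 in control stromal cells. Mdm2, the ubiquitin ligase that degrades p53, ran from 24.8 in IL-1β AT2-like to 88.9 in control stromal cells. Trp53inp1, which links p53 to autophagy and cell death, ran from 19.8 in IL-1β stromal to 64.4 in control stromal cells. Trp53 itself ran from 35.4 in control AT2-like to 114 in control stromal cells, with 50.1 in IL-1β AT2-like and 78.2 in IL-1β stromal cells. In the control library each of the 10 genes other than Ccng1, Cdkn2b and Gdf15 was highest in stromal cells.

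Gdf15, a secreted stress cytokine of the TGF-β superfamily, went against the rest. Its levels were low throughout, from 4.88 (2.79 to 7.93) CPM in control AT1-like to 39.7 (32.7 to 47.7) in IL-1β transitional cells. AT1-like cells held 0.485 (0.270 to 0.817) times the AT2-like level among control cells and 0.376 (0.276 to 0.503) times among IL-1β cells. Few cells carried it. After thinning, 30 of 902 control AT2-like cells (3.33%, 2.26 to 4.71) and 163 of 1864 IL-1β AT2-like cells (8.74%, 7.50 to 10.1) held a Gdf15 UMI, and 10.2% and 17.4% did without thinning. In control AT1-like cells the share was 2 of 228 (0.877%) and in control stromal cells 29 of 768 (3.78%), so the control AT2-like share lay near the stromal one and above the AT1-like one. No class here is known to lack Gdf15, so free RNA in these low levels could not be set apart. In IL-1β stromal cells 24 of 452 (5.31%) held a Gdf15 UMI.

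Within the control library, 4 of the 10 genes were at least 2 times as high in transitional as in AT2-like cells with an interval above 1, and none was that much lower. These shares compare with 7.17% of all genes higher and 1.95% lower by the same rule. The genes were Cdkn1a (4.04 times, 3.68 to 4.43), Phlda3 (3.62, 3.02 to 4.33), Cdkn2b (3.49, 2.74 to 4.43) and Ccng1 (3.04, 2.68 to 3.45). The median of the 10 ratios was 1.87 against 1.18 over all genes tested. Mdm2 and Trp53inp1 had ratios of 1.87 each, Bax 1.59, Trp53 1.53 and Gdf15 1.49 (0.922 to 2.31). Among IL-1β cells 2 of the 10 were higher, Cdkn2b (3.09, 2.69 to 3.54) and Cdkn1a (2.77, 2.59 to 2.95), against 5.88% of all genes, and none was lower against 2.23%. There the Bax and Trp53 ratios were both 1.04 with intervals that held 1, and Phlda3 and Ccng1 were at 1.52 and 1.60. No test compares these ratios between the libraries, and the transitional classes of the 2 libraries were not alike in their markers.

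AT1-like cells were set against AT2-like cells in the same way. In the control library 7 of the 10 were at least 2 times as high as in AT2-like cells and 1 was lower, where 19.5% of all genes were higher and 6.98% lower. These were Cdkn2b, Cdkn2a (5.24 times), Cdkn1a (4.46), Phlda3 (3.74), Mdm2 (2.53), Ccng1 (2.39) and Trp53 (2.28), and Gdf15 was the lower one. The Cdkn2a ratios here and below are over an AT2-like level read as background, so their size is not read as a fold of expression. In the IL-1β library 5 were higher, Cdkn2b, Cdkn2a (2.91), Phlda3 (2.80), Ccng1 (2.57) and Cdkn1a (2.47), and Gdf15 was lower, against 12.3% and 6.23% of all genes. The median of the 10 ratios was 2.46 for control and 2.08 for IL-1β cells, and over all genes it was 1.32 and 1.22. With size factors in place of total UMIs the counts of higher genes were 4 in each library, and no share of all genes was computed there. Set directly against transitional cells, AT1-like cells had 2 genes higher in the control library (Cdkn2b 5.73, Cdkn2a 3.97) and 1 in the IL-1β library (Cdkn2b 2.65), with Gdf15 lower in both (0.326 and 0.260). The shares of all genes were 9.43% higher and 4.30% lower in the control, and 6.06% and 4.85% in the IL-1β library.

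**Figure D2:**
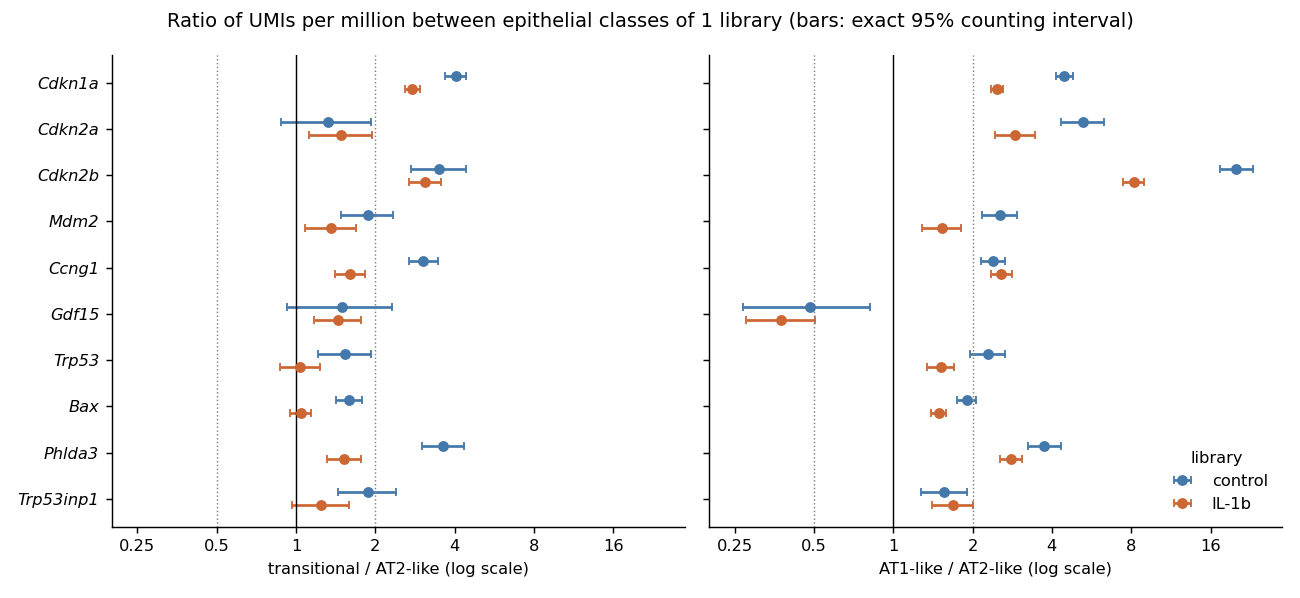
Ratio of CPM (x axis, log scale) of transitional over AT2-like cells (left) and AT1-like over AT2-like cells (right) for the 10 genes (y axis) in the control (blue) and IL-1b (orange) libraries; bars are exact 95% counting intervals, and dotted lines mark 0.5 and 2. Cdkn2b lies furthest to the right, at 20.02 and 8.19 for AT1-like cells, and Gdf15 is the gene below 1 there.

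The control transitional class was not uniform. At a finer clustering resolution of 2.0, again without the 10 genes, 14 of the 113 cells formed a cluster of their own. The same 14 cells made up the control transitional class when all barcodes were clustered and when the listed genes were kept, and they were part of its 24 cells when each library was clustered on its own. Their Sftpc level, 3639 CPM, was close to the 3118 of control stromal cells, which do not make it, while Krt8 stood at 1915, Cldn4 at 543 and Sprr1a at 1005. 1 cell held 277 of the 360 Krt8 UMIs, and the median was 5 per cell, the same as in control AT1-like cells. Sprr1a was held by 11 of the 14 cells, with 92 of its 189 UMIs in 1 cell. Cldn4 was held by 13, with a median of 5 UMIs per cell. The other 99 cells, a remainder and not a cluster of their own, had Sftpc at 101052 and Krt8 at 289, close to AT2-like cells (99178 and 269). Their summed counts stood apart from AT2-like cells in Sprr1a (144 against 3.36 CPM), Ager (2450.4 against 937), the stress gene Trib3 (58.1 against 13.5) and Cldn4 (5.66 against 1.19). Of these 4 genes only Ager was found in all 99 cells, with a median of 26 UMIs per cell. Sprr1a was held by 12 of the 99, and 1 cell had 70 of its 204 UMIs. Trib3 was held by 29, and Cldn4 by 5 with 8 UMIs in all. This split was looked at after the values were seen, and its ratios are a description.

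The 14 cells carried higher levels of Cdkn1a, Ccng1, Phlda3 and Bax than any named epithelial class. Cdkn1a stood at 1521 (1350 to 1708) CPM, against 278 (251 to 306) in the other 99 cells and 105 in AT2-like cells. All 14 cells held it, with 5 to 57 UMIs and a median of 15.5 per cell. Ccng1 stood at 947 (813 to 1097) against 114 and 69.6, and again all 14 cells held it, with 2 to 29 UMIs. Phlda3 stood at 500.04 (404 to 612) against 58.1 and 30.4, with 2 to 16 UMIs in each of the 14. Bax stood at 484 (390 to 594) against 198 and 146, with 1 to 15 UMIs per cell. Relative to control AT2-like cells the ratios were 16.5 (13.0 to 20.7) for Phlda3, 14.5 (12.7 to 16.5) for Cdkn1a, 13.6 (11.5 to 15.99) for Ccng1, 7.13 (4.48 to 10.9) for Cdkn2b, 3.58 (2.10 to 5.73) for Trp53inp1, 3.31 (2.65 to 4.09) for Bax, 3.15 (1.88 to 4.98) for Mdm2 and 2.70 (1.59 to 4.32) for Trp53. That is 8 of 10 genes higher, where 16.2% of all genes were, and none lower where 3.59% were. Of 23 other p53 targets that could be counted, 12 were higher and none was lower. Cdkn2a and Gdf15 had 2 UMIs each in the 14 cells, which is too few for a level.

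The other 99 cells, set against AT2-like cells, had 2 of the 10 genes higher, Cdkn2b (3.01, 2.29 to 3.91) and Cdkn1a (2.64, 2.36 to 2.96), and none lower, against 5.74% and 1.74% of all genes. The Ccng1 and Phlda3 ratios of 3.04 and 3.62 for the whole class fell to 1.64 (1.38 to 1.94) and 1.91 (1.49 to 2.43) without the 14 cells. Between the 2 groups, 6 of the 10 genes were higher in the 14 cells, with Phlda3 at 8.61, Ccng1 at 8.31 and Cdkn1a at 5.48 times, and none was lower, against 12.5% and 5.15% of all genes.

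At resolution 2.0 the IL-1β cells named transitional lay mainly in 2 clusters, and neither reached these levels. These clusters were not limited to the main transitional class. The larger held 6102 Ager UMIs, against 5369 in all 272 cells of that class. The larger, of 199 cells, held Cdkn1a at 425 (398 to 453), Ccng1 at 100.1 and Phlda3 at 93.5 CPM, with Krt8 at 1156 and Sftpc at 31737. The smaller, of 60 cells, held Cdkn1a at 210.1, Ccng1 at 71.9 and Phlda3 at 96.4. The 14 control cells thus stood above both IL-1β clusters in these 3 genes and far below the larger one in Sftpc. Cdkn2b, at 123 and 122 CPM, was close to its level in the 14 control cells (128, 81.8 to 190.0).

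**Figure D3:**
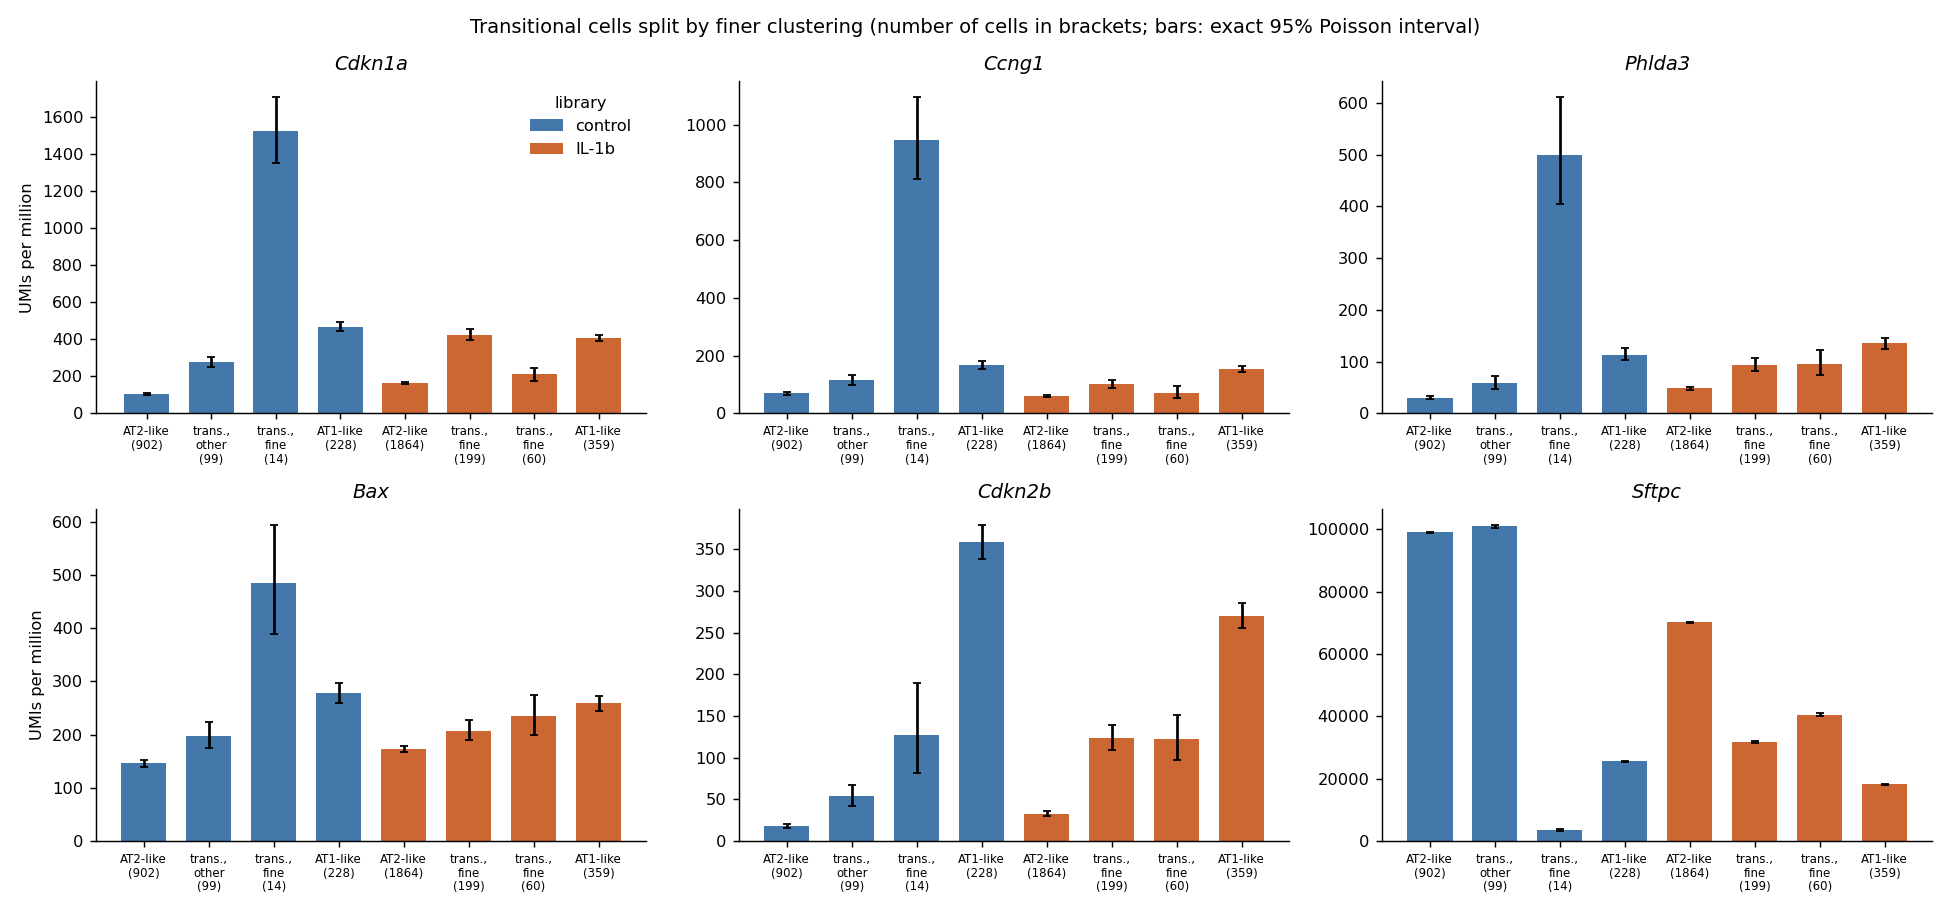
CPM (y axes, from 0) of Cdkn1a, Ccng1, Phlda3, Bax, Cdkn2b and the AT2 gene Sftpc in AT2-like, transitional and AT1-like cells. The control library is blue and the IL-1b library orange, with the number of cells in brackets. Bars are exact 95% Poisson intervals. Control transitional cells are split by finer clustering. The IL-1b transitional bars are the transitional clusters of the finer clustering, which include cells outside the main transitional class. The 14 control cells hold Cdkn1a at 1521, Ccng1 at 947 and Phlda3 at 500.04 CPM with Sftpc at 3639.

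The comparison of IL-1β with control asked which of the 10 genes differed with the cytokine in each class. Gdf15 was the 1 gene at least 2 times as high in AT2-like cells, at 27.5 (25.3 to 29.7) against 10.1 (8.44 to 11.9) CPM, a ratio of 2.73 (2.26 to 3.31). By the same rule 9.40% of all genes were higher and 4.61% lower, so 1 of 10 is near the background. Smaller differences went in both directions. Cdkn2b (1.84, 1.59 to 2.14), Phlda3 (1.60, 1.42 to 1.79), Cdkn1a (1.56, 1.47 to 1.66), Trp53 (1.41, 1.27 to 1.58) and Bax (1.19, 1.12 to 1.25) were higher under IL-1β, and Trp53inp1 (0.790), Mdm2 (0.774) and Ccng1 (0.855) were lower, with intervals that excluded 1. Cdkn2a had a ratio of 1.00 (0.838 to 1.196) at its background level. The median over all genes tested was 1.09.

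In transitional cells Gdf15 was also higher (2.65, 1.69 to 4.30), on 113 and 24 UMIs, and Ccng1 was lower (0.450, 0.382 to 0.529), where 7.10% of all genes were higher and 3.77% lower. Cdkn1a stood at 454 and 424 CPM (1.07, 0.975 to 1.18). Trp53inp1 (0.527), Mdm2 (0.562), Phlda3 (0.671) and Bax (0.779) were lower by less than the fold required, with intervals below 1. Cdkn2b was higher by less than the fold (1.63, 1.29 to 2.07), and the intervals of Cdkn2a and Trp53 held 1. Several of these differences moved with the 14 control cells described above. Ccng1 stood at 114 CPM in the other 99 control cells, against 95.2 in the IL-1β class, and Bax at 198 against 181. Phlda3, at 58.1 in the 99 cells, was below the 73.8 of the IL-1β class, and Cdkn1a, at 278, was below 454. Mdm2 (54.5 against 33.7) and Trp53inp1 (43.9 against 26.4) stayed higher in the 99 cells. At resolution 2.0, where the control class was the 14 cells alone, 6 of the 10 genes were lower under IL-1β and none was higher. No share of all genes was computed at that setting, so this count has no background to be read against. In AT1-like cells Gdf15 was higher (2.12, 1.19 to 3.98) on 50 and 16 UMIs, and Mdm2 was lower (0.469, 0.386 to 0.568), at 38.0 against 81.2 CPM, where 5.58% of all genes were higher and 4.54% lower. Cdkn2a (0.555, 0.461 to 0.668), Cdkn2b (0.754, 0.696 to 0.816) and Cdkn1a (0.867, 0.811 to 0.928) were lower by less than the fold required. Phlda3 (1.19, 1.05 to 1.36) was higher by less than that fold.

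In stromal cells Trp53inp1 was the 1 gene past the fold, at 19.8 (17.1 to 23.0) CPM under IL-1β against 64.4 (60.1 to 69.0) in the control (0.308, 0.261 to 0.362), and no gene was higher, where 12.7% of all genes were lower and 4.88% higher. In all, 9 of the 10 ratios had intervals below 1, among them Cdkn2b (0.519), Mdm2 (0.566), Ccng1 (0.568), Cdkn1a (0.583), Phlda3 (0.605), Trp53 (0.688), Cdkn2a (0.766) and Bax (0.790). The 10 ratios had a median of 0.594, and the median over all genes tested was itself 0.792. The largest IL-1β stromal cluster, of 187 cells, had a median of 7780 UMIs per cell and 4 mitochondrial genes among its 10 leading genes. Without it the ratios were 0.628 for Cdkn1a, 0.580 for Cdkn2b, 0.867 for Cdkn2a and 0.318 for Trp53inp1.

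**Figure D4:**
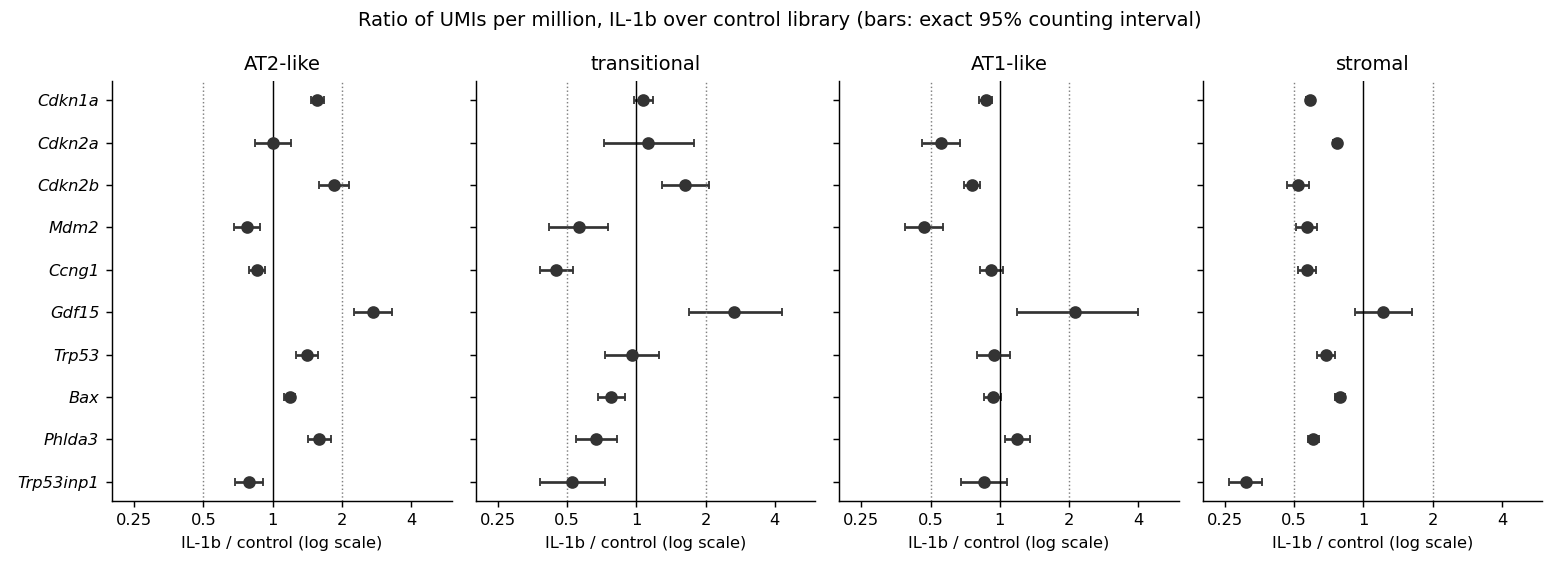
Ratio of CPM, IL-1b over control library (x axis, log scale), for the 10 genes (y axis) in AT2-like, transitional, AT1-like and stromal cells; bars are exact 95% counting intervals, and dotted lines mark 0.5 and 2. Gdf15 lies above 2 in the 3 epithelial classes, and 9 of 10 stromal ratios lie below 1.

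Across the clusters of at least 30 cells, the 10 genes fell into few patterns. Over these 20 clusters, on log2(CPM + 10), Cdkn1a and Phlda3 were most alike among the members (r = 0.93), and Gdf15 was negatively correlated with each of the other 9 (r from -0.63 to -0.31). The clusters share 2 libraries and differ mainly in epithelial or stromal origin, so these values are a description. Among all other genes with at least 1000 UMIs, the patterns most like that of Cdkn1a were Phlda3 (0.93), S100a6 (0.92) and Snap47 (0.90). Those most like Cdkn2a were Cmtm3 (0.98), Sh3kbp1 (0.97) and Mxra8 (0.97), and those most like Cdkn2b were Pdlim2 (0.91), Ifit3 (0.90) and Coq10b (0.90). For Gdf15 they were Pim1 (0.88), Il18rap (0.88) and Frmd4b (0.84). For Mdm2 the closest was Kansl2 (0.94), for Ccng1 Actr2 (0.85), for Trp53 Synpo (0.95), for Bax Prkar1a (0.94), for Phlda3 Lhfp (0.94) and for Trp53inp1 Arcn1 (0.88).

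**Figure D5:**
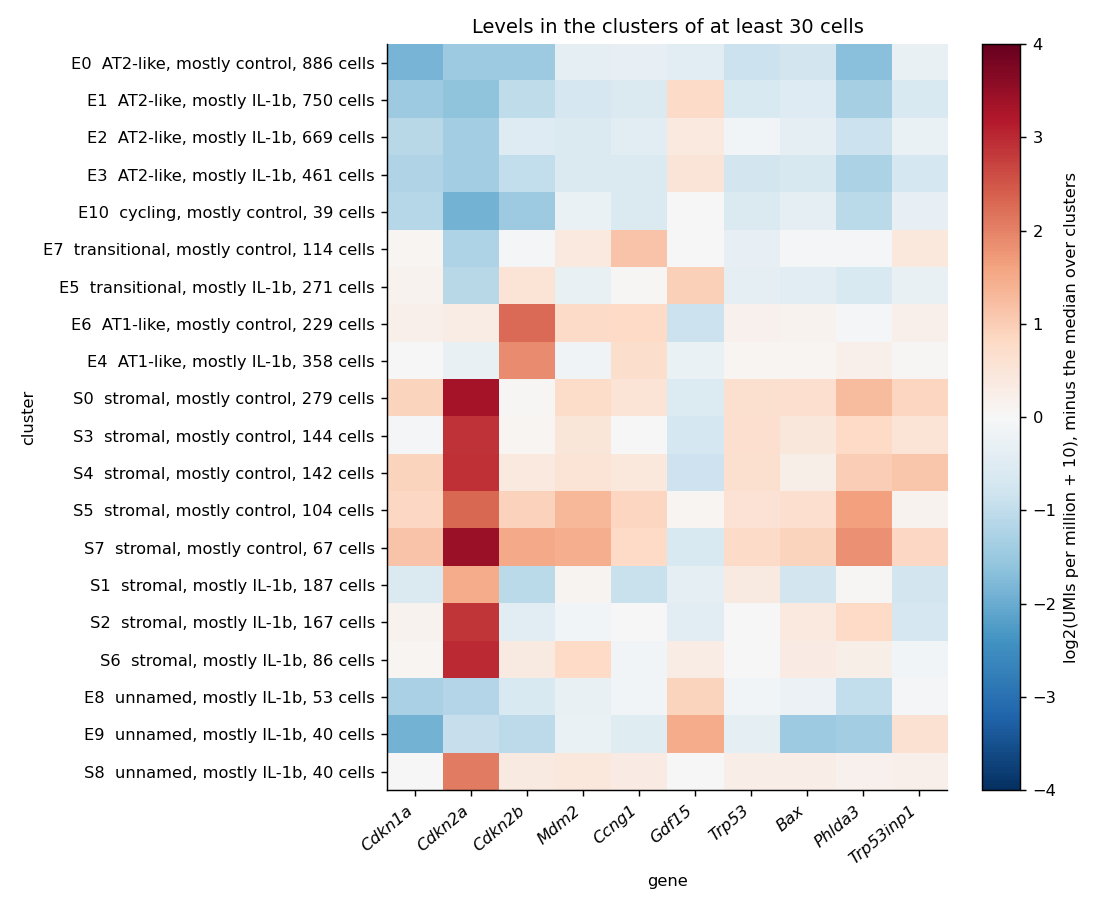
Levels of the 10 genes (columns) in the 20 clusters of at least 30 cells (rows, with their class, main library and number of cells), as log2(CPM + 10) minus the gene's median over the clusters. Cdkn2a is red in stromal clusters, Cdkn2b in the AT1-like clusters E6 and E4, and Gdf15 in clusters E1, E5, E8 and E9, which are mostly of the IL-1b library.

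Other genes of the pathway were counted from lists drawn up by function. Of 25 other p53 target genes, 6 of the 23 counted were higher in control transitional than in AT2-like cells and none was lower. The shares of all genes were 7.17% and 1.95%. The 6 included Sfn, the 14-3-3 sigma gene (3.06), Apaf1, the apoptosome scaffold (4.63), and Plk2, a stress-induced kinase (3.24). This count rested largely on the 14 cells described above, where 12 of 23 were higher, against 16.2% of all genes. In the other 99 cells 2 of 22 were higher and none was lower, against 5.74% and 1.74% of all genes. Sfn stood at 92.7 CPM in those 99 cells, 495 in the 14 and 45.8 in AT2-like cells. Of the 14 cells 8 held it, and 1 cell had 36 of its 93 UMIs. In control AT1-like cells 7 of 23 were higher and none lower, against 19.5% and 6.98% of all genes, led by Sfn (4.08), Apaf1 (4.74) and Polk (3.46). In the IL-1β library 3 of 23 were higher in transitional cells, against 5.88% of all genes. They were Pmaip1, the BH3-only gene also called Noxa, at 10.2 against 0.314 CPM, Plk2 (2.60) and Gadd45a (2.06). In IL-1β AT1-like cells 7 of 24 were higher, against 12.3% of all genes, led by Plk2 (9.06), Eda2r (6.26) and Xpc (2.99). Between the libraries, 2 of 24 were higher in AT2-like cells under IL-1β, Sfn (3.002) and the death receptor gene Fas (3.14), and Plk2 was lower (0.494). Of all genes 9.40% were higher and 4.61% lower, so these AT2-like counts are near the background. In transitional cells 3 of 22 were lower under IL-1β and 1 was higher, against 3.77% and 7.10% of all genes. The control side there includes the 14 cells, and their part in this count was not tested. In AT1-like cells 2 of 22 were lower and none was higher, against 4.54% and 5.58%. In stromal cells 7 of 25 were lower under IL-1β, led by Perp (0.166), Pmaip1 (0.310) and Btg2 (0.385), and Sfn was higher (2.37). Of all genes 12.7% were lower and 4.88% higher. Stromal Sfn stood at 11.9 CPM under IL-1β and 5.03 in the control, against 137 and 45.8 in AT2-like cells. AT2 markers in IL-1β stromal cells reached 3.73 to 13.5% of their AT2-like level, so free RNA in stromal Sfn could not be set apart.

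None of the 9 p53 regulators and family members that could be counted passed the fold in AT2-like cells under IL-1β, or in transitional or AT1-like over AT2-like cells of either library. The shares of all genes in these comparisons are given above. Of the 7 counted in transitional cells, Mdm4, the partner of Mdm2, was higher under IL-1β (2.07), and so was the checkpoint kinase gene Atr (2.81, 1.30 to 6.95). Of all genes 7.10% were higher there. Among the other CDK inhibitors and RB family genes, Cdkn1c, which encodes p57, was higher in control transitional (5.24) and AT1-like (3.41) than in AT2-like cells. In control AT1-like cells Cdkn1b was higher too, and Cdkn2c and Cdkn3 were lower, 2 of 8 each way against 19.5% and 6.98% of all genes. Under IL-1β Cdkn1c was higher in AT2-like (3.91) and AT1-like (2.07) cells and lower in stromal cells (0.162). There Cdkn2c (0.228) and Cdkn1b (0.328) were lower too, in all 4 of 8 against 12.7% of all genes. The control AT2-like level of Cdkn1c, 3.58 CPM, was 7.40% of the stromal level, within the range of stromal markers there (1.38 to 7.57%). Ratios over that level are thus not read as folds of expression.

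Of 12 proliferation genes, 5 were lower in IL-1β than in control AT2-like cells, against 4.61% of all genes. They were led by Mcm5 (0.216), Mki67 (0.340) and Ccnb2 (0.438), each at 6.04 CPM or less. In the 39 cycling control cells all 12 were higher than in AT2-like cells. Mki67, Top2a, Cdk1, Cenpa, Ccnb1 and Birc5 of this list were also among the markers that named these cells. Part of this count thus followed from the naming. None of the 10 p53 and senescence genes passed the fold in either direction in the cycling cells, where 8.64% of all genes were higher and 2.15% lower. Cdkn1a stood at 180.1 CPM there (1.72 times AT2-like, 1.45 to 2.02). Of 9 G1 cyclins and kinases, Ccnd2 was higher in transitional cells of both libraries (3.18 and 3.53). Ccnd1 was lower in control AT1-like cells (0.367), where E2f1 (4.57) and Ccnd2 (6.52) were higher. The AT2-like Ccnd2 level was 2.29% (control) and 2.55% (IL-1β) of the stromal level, within the range of stromal markers there. It is read as background, so the size of these Ccnd2 ratios is not read as a fold of expression. Transitional Ccnd2 stood at 60.0 and 43.2 CPM against 822 and 480 in stromal cells, so free RNA could not be set apart.

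Secretory genes that senescent cells often release were also counted between the libraries. Of 27 listed, 14 of 23 were higher in AT2-like, 13 of 21 in transitional, 12 of 22 in AT1-like and 14 of 24 in stromal cells, against 9.40%, 7.10%, 5.58% and 4.88% of all genes, and 2, 1, 2 and 2 were lower. The epithelial counts include genes at the free-RNA level. In stromal cells Mmp3, a matrix metalloproteinase, stood at 11705 against 319 CPM. Its AT2-like level of 321 was 2.74% of that, within the range of stromal markers in AT2-like cells, and so were Mmp12 (3.28%), Mmp10 (2.01%) and Igfbp5 (2.34%), so these genes are read as background there. Mmp3 was also low beside the stromal level in IL-1β transitional (326 CPM) and AT1-like cells (445 CPM). Igfbp2, an IGF-binding protein, was lower under IL-1β in all 4 classes, at 6.00 against 881 CPM in AT1-like cells. In control AT2-like and transitional cells it stood at 14.0 and 26.9 CPM, low beside AT1-like (881) and stromal cells (146). Free RNA could not be set apart in those 2 classes.

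Of 9 BCL-2 family genes, Bmf, a BH3-only gene, was higher under IL-1β in AT2-like (3.20) and AT1-like (3.20) cells and lower in stromal cells (0.342), while Bcl2l11, which encodes BIM, was lower in AT2-like cells (0.499). Bik, another BH3-only gene, was higher in control transitional than in AT2-like cells (3.63). Of 9 genes of the ATF4 stress response, a pathway that can also induce Gdf15, 5 were higher in control transitional than in AT2-like cells, against 7.17% of all genes. They were led by Trib3 (4.35), Asns (3.44) and Atf3 (3.33). Under IL-1β, Asns was the 1 gene higher in AT2-like cells (2.02), none was higher and Sesn2 was lower in transitional cells (0.444), and 5 were higher in stromal cells, led by Chac1 (5.85), Trib3 (3.66) and Nupr1 (2.28). Of all genes, 9.40% were higher in AT2-like and 4.88% in stromal cells, and 3.77% were lower in transitional cells.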

How the data were processed

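The 2 deposited matrices, 1 per library, hold whole-number UMI counts per gene and cell, made by the authors with Cell Ranger. The submitters' processing notes name GRCm38, mm9 and Scanpy 1.3.6. Barcodes with 500 to 7000 genes and more than 2000 UMIs were kept. Epithelial and stromal cells were clustered jointly over both libraries (Scanpy 1.11.5, Leiden, resolution 1.0, 50 components, 15 neighbors) without the 10 genes and the listed genes, and the rule for naming clusters from fixed markers was completed after the clusters were seen. The doublet caller marked 3 cells and was taken to have failed, so doublets were not removed. Counts were summed per class and library, divided by total UMIs and given per 1000000 (CPM) with exact Poisson intervals. Ratios have exact conditional binomial intervals. A gene was called higher or lower at a ratio of at least 2 or at most 0.5 with an interval that excluded 1, and the background covers genes with at least 20 UMIs over both sums. On simulated counts with counting error only, all 200 genes changed 4-fold were called in AT2-like cells (12605 genes), and 0.314% of unchanged genes. In transitional cells 0.839% of unchanged genes were called. The simulation held no spread between cells or cultures, so these shares do not measure false calls in the data. Shares are of cells with a UMI after thinning to 4000 UMIs, with Clopper-Pearson intervals. UMI counts of 3′ tags were not compared between genes. The 10 genes and the lists were chosen with earlier results of these data known. All 10 are reported, and of each list at most 3 called genes per direction were named, those with the interval limit nearest 1 farthest from 1. The values of 1 list gene are not reported here. Alternatives are described in the closing section.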

Additional observations from a re-analysis of the deposited data

Results flagged for a closer look

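Several IL-1β over control ratios differed in direction between classes. In AT2-like and stromal cells the ratios were 1.56 and 0.583 for Cdkn1a, 1.84 and 0.519 for Cdkn2b, 1.60 and 0.605 for Phlda3, and 1.41 and 0.688 for Trp53. The AT2-like ratio was thus 2.68, 3.55, 2.64 and 2.05 times the stromal ratio for these genes. Bax had a ratio of 1.19 in AT2-like and 0.779 in transitional cells, a difference of 1.52 times. None of these differences was tested, since each library was sequenced once. The median ratio over all genes was 1.09 in AT2-like and 0.792 in stromal cells.

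Clusters that were left unnamed also held these genes. Gdf15 stood at 36.8 (25.5 to 51.4) CPM in cluster E8 (53 cells) and at 61.3 (35.1 to 99.6) in cluster E9 (40 cells), both mainly of the IL-1β library, against 15.7 in the highest control class. In the IL-1β library itself it stood at 39.7 (32.7 to 47.7) in transitional and 27.5 in AT2-like cells. E8 lay between these 2 levels, and the interval of E9 overlapped that of the transitional cells. Cluster E9 rests on 16 Gdf15 UMIs, had a median of 5727 UMIs per cell and 9 mitochondrial genes among its 10 leading genes; their part in the level was not tested. In cluster S11, 12 cells of the control library, Phlda3 stood at 618 (526 to 721) CPM against 304 in the highest control class. Trp53inp1 stood at 150 (106 to 205) there, against 64.4.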

How the results depend on the processing

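Under 14 other settings, 13 planned and 1 chosen after seeing the data (without the largest IL-1β stromal cluster), none of the 1090 recomputed ratios of the 10 genes reversed a call and 880 moved by less than counting error. Only ratios called higher or lower could be scored as reversed. Some uncalled ratios did change side: for IL-1β over control in transitional cells, Cdkn1a went from 1.07 to as low as 0.248 and Cdkn2b from 1.63 to 0.711. Gdf15 was higher in IL-1β AT2-like cells under each of the 14 (2.40 to 3.02 times). The values for the control transitional class moved most. Its cells changed too, from 113 to the same 14 at resolution 2.0, with all barcodes and with the listed genes kept. With each library clustered on its own it held 24 cells, the 14 among them, so these settings are not independent of each other. The part of this change of cells in the values was not tested. The counts of genes below have no share of all genes beside them, which was not computed under these settings. For transitional over AT2-like cells of the control library, the number of higher genes went from 4 to 8 at resolution 2.0, with all barcodes and with the listed genes kept, and to 9 with each library clustered on its own. For IL-1β over control in transitional cells, lower genes went from 1 to 6 under the first 3 of these, to 3 with each library on its own, and to 2 with the mean over cells or totals without abundant genes. The higher gene there, Gdf15, passed no longer (0) at resolution 2.0 and with listed genes kept, although its ratio was 2.27 to 4.24 over the 13 settings with a value. For transitional over AT2-like cells of the IL-1β library, higher genes went from 2 to 6 with each library on its own. For AT1-like over AT2-like control cells, higher genes went from 7 to 4 with size factors and lower genes from 1 to 0 at resolution 2.0 and with each library on its own, and in the IL-1β library lower genes went to 0 at resolution 0.5. For IL-1β over control in AT1-like cells, higher genes went to 0 with each library on its own, and lower genes went to 0 at resolution 2.0 and to 2 with Louvain clustering. In stromal cells, lower genes went from 1 to 2 with the mean over cells. At resolution 0.5 the control transitional class had under 10 cells and gave no value. For IL-1β over control, the size factor ratio differed from the total UMI ratio by 0.11 (log2) in AT2-like and -0.31 in stromal cells. Gene ratios are divided by it, so with size factors they fell in AT2-like and rose in stromal cells. No paired analysis was possible because each condition had 1 library. Depth limits Gdf15 most, with 16 UMIs in control AT1-like and 24 in control transitional cells.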
